A study of Mus musculus with 12 samples.

Results

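The 39 genes described here encode the enzymes that build triglyceride, the lipases that break it down, and the proteins that coat, shape and assemble lipid droplets. They were chosen by name and matched to the count tables through the gene names of the GENCODE vM21 annotation. All 39 were found among the 55536 genes counted. RNA came from the cerebellum or the cerebral cortex of 1-month-old mice, WT or *Snx14*-KO, with 3 libraries for each of the 4 combinations of tissue and genotype and 12 libraries in all. *Snx14*-KO mice carry a homozygous frameshift deletion made with Cas9 in C57BL/6J embryos, a single allele that was then backcrossed to C57BL/6J. The deletion is present in every cell of the animal and not in chosen cell types. WT controls were littermates, and the labels give neither sex nor any treatment. The labels give the cells only as a mix, so each library averages over all cells of the tissue piece.

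Triglyceride is made on the endoplasmic reticulum by a chain of acylations. Glycerol-3-phosphate acyltransferases attach the first fatty acid, acylglycerol-phosphate acyltransferases the next, lipins remove the phosphate, and DGAT enzymes add the last fatty acid to give triglyceride. The product is packed into droplets that bud from the endoplasmic reticulum with the help of seipin and its partners, and that are coated by perilipins. Lipases with their activators and inhibitors release the fatty acids again. Brain tissue stores little triglyceride compared with fat or liver, and droplets are best known there in glia and in the cells that line the ventricles. SNX14 is a membrane protein of the endoplasmic reticulum that gathers at its contacts with lipid droplets.

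Gene totals ranged from 16672589 to 19887427 read pairs per library. The *Snx14* count, scaled by edgeR's TMM method, was 83.3% ± 0.647 (SD, n = 3) lower in *Snx14*-KO cerebella and 85.7% ± 0.730 (SD, n = 3) lower in *Snx14*-KO cortices than the WT mean, in the direction of the genotype labels. The tissue labels were checked with a cerebellar marker. *Gabra6*, a receptor subunit of cerebellar granule cells, was at 482 to 693 CPM in the cerebella and at most 2.02 CPM in the cortices. CPM, counts per 1000000 read pairs, was taken after TMM scaling over the 12 libraries. Some libraries stood apart in the cells they held. The summed level of 6 choroid plexus markers was 81.1, 2721 and 7278 CPM in WT cerebella 1, 2 and 3 and 958 to 3180 CPM in *Snx14*-KO cerebella. The summed level of 12 microglia and macrophage markers was 669.8 CPM in *Snx14*-KO cerebellum 3, against 218 to 290.3 CPM in the other 5 cerebella. The same library had the highest sum of 10 astrocyte and Bergmann glia markers, 9436 CPM against 7605 to 8979 CPM in the other cerebella, with *Gfap* at 912 CPM against 276 to 442 CPM, and the lowest sum of 8 Purkinje cell markers, 8763 CPM against 11038 to 12609.6 CPM. The 10 meningeal fibroblast markers summed to 439.9 to 471 CPM in *Snx14*-KO cerebella and 163 to 333 CPM in WT cerebella. By DESeq2, 8 of these 10 were called between the genotypes, where 0.901% of all genes were, and by edgeR 0. All 10 estimates were higher in *Snx14*-KO mice. The 8 cerebellar granule cell markers summed to 2734 to 3372 CPM in *Snx14*-KO and 3219 to 3811 CPM in WT cerebella. A part of these cells in the members' values was not tested. The 7 adipocyte markers summed to 0.430 to 1.21 CPM in cerebella and 1.93 to 3.51 CPM in cortices, where most of the sum was *Adrb3*, and the defining *Adipoq*, *Lep* and *Cfd* were each at most 0.107 CPM in every library. Fewer cells of a type and less RNA per cell cannot be told apart in such libraries.

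The promoters of the members that the results turn on are shown from RefSeq on the build GRCm38.p6, each from 250 bases before to 50 bases after a transcription start. Of the 39 members, 31 had an entry, and *Dgat2* had none. *Plin3* and *Plin4* are shown because they had the lowest and the highest estimate of a genotype difference in cerebellum, and *Lpin1* and *Mgll* because they differed between tissues in opposite directions. Letters in capitals mark matches, on either strand, to the GC box (GGGCGG), the CCAAT box (CCAAT) and the E box (CACGTG), the first of which overlaps itself in the *Plin3* window.
*Plin3*, chr17:56290462-56290761, minus strand: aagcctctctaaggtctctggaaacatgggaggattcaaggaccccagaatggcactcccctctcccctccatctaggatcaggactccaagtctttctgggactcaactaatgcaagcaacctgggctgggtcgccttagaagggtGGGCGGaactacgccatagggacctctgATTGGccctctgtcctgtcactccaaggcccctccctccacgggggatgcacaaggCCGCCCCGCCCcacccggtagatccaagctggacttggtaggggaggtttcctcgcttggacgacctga
*Plin4*, chr17:56109733-56110032, minus strand: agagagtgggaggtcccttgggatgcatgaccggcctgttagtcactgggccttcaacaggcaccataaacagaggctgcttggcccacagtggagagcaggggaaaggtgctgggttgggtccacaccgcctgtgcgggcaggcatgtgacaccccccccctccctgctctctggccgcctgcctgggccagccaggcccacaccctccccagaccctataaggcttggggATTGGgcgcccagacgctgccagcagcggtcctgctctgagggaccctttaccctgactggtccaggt
*Lpin1*, chr12:16610917-16611216, minus strand: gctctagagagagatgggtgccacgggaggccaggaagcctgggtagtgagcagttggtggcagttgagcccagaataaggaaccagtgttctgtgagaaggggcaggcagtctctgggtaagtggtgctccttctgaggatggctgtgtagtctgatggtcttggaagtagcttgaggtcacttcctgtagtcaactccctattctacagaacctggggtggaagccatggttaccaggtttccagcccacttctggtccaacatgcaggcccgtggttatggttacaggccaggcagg
*Mgll*, chr6:88724162-88724461, plus strand: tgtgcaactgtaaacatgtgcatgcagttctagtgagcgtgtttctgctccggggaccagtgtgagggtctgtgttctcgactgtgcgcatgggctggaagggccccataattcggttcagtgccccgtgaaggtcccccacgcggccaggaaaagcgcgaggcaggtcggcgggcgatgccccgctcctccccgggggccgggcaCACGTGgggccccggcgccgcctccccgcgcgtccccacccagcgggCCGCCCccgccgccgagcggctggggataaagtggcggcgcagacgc

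The *Plin3* window held 3 GC boxes and 1 CCAAT box, and it lies 2362 bases from the start of the gene in the GENCODE annotation. The *Plin4* window, 21 bases from the annotated start, held 1 CCAAT box and no GC box. *Mgll* held 1 E box and 1 GC box, and *Lpin1* none of these letters. GC boxes were in the windows nearest the annotated start of 19 of the 31 members, and in 35.7% of the 32851 windows of all genes. CCAAT boxes were in 13 of 31 against 37.4%, E boxes in 5 of 31 against 7.15%, and TATA boxes (TATAAA) in 1 of 31 against 13.6%. These member counts take 1 window a gene, while the shares are over every window of every gene. Of all 44 windows of the members, 28 held GC boxes, 14 CCAAT boxes, 5 E boxes and 1 a TATA box. The paired half-sites bound by the fatty acid receptors of the PPAR family, AGGTCA repeated with a single base between, were in none of the 31 and in 0.0396% of all windows. The members' windows nearest the annotated start had a median GC content of 60.3%, and all windows of all genes 52.7%. A match is only a match of letters.

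Several members are neighbours. *Plin4*, *Plin5* and *Plin3* lie in this order on the minus strand of chromosome 17, with 1797 bases between *Plin4* and *Plin5* and 160 kb between *Plin5* and *Plin3*. *Dgat2* and *Mogat2*, which belong to the same enzyme family, are 36.4 kb apart on chromosome 7. Neighbours stood at different levels per length. In WT cerebellum, *Dgat2* had a mean of 18.5 TPM and *Mogat2* of 0.0334 TPM, where TPM, a level scaled for gene length, is the number of a gene's transcripts in 1000000. *Plin3* had a mean of 29.9 TPM there and *Plin5* of 0.501 TPM.

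Most members were expressed in both tissues. Of the 39 members, 32 had a mean of at least 1 TPM in WT cerebellum and 30 in WT cortex, while 24 and 22 had a mean of at least 10 TPM. 5 members were too low to be tested in any comparison. These were the monoacylglycerol acyltransferases *Mogat1* and *Mogat2*, the second known from the gut, with 50 and 2 read pairs over all libraries, *Plin1*, the perilipin of fat cells, with 13, *Cidec*, a protein that fuses droplets in fat cells, with 8, and *Fitm1*, a droplet-forming protein of muscle, with 24. *Plin5*, the perilipin of oxidative tissues, and *Gpat2*, a mitochondrial acyltransferase known from testis, were tested in some comparisons only.

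**Figure D1:**
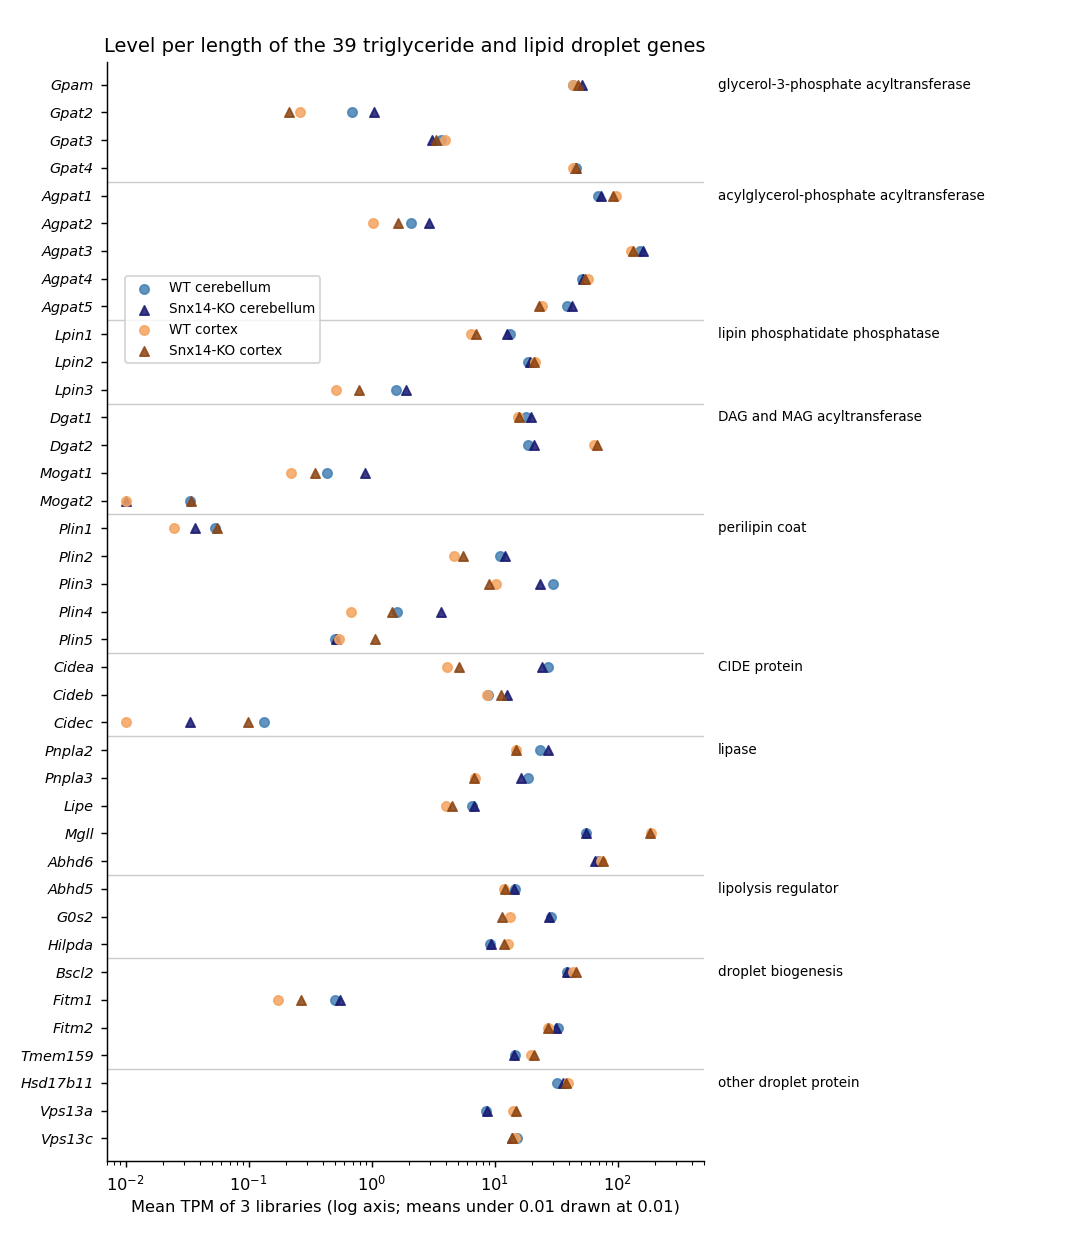
Mean TPM of 3 libraries (log axis) for each of the 39 members, grouped by role, with circles for WT and triangles for *Snx14*-KO and with blue for cerebellum and orange for cortex. *Agpat3* and, in cortex, *Mgll* lie above 100 TPM, while *Mogat2*, *Plin1* and *Cidec* lie at or under 0.133 TPM in every group.

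At the entry to the pathway, *Gpat4* of the endoplasmic reticulum and *Gpam* of the mitochondrial surface stood at like levels per length. *Gpat4* was at 48.7, 43.0 and 44.9 TPM in WT cerebella, 44.3, 42.7 and 48.4 TPM in *Snx14*-KO cerebella, 45.1, 43.4 and 42.4 TPM in WT cortices and 44.8, 45.7 and 46.4 TPM in *Snx14*-KO cortices. The groups overlapped in TPM. In TMM-scaled CPM the *Snx14*-KO cortices, at 94.4 to 98.3 CPM, lay just above the WT cortices, at 91.3 to 93.2 CPM, with a log2 fold change of 0.06. Of 33 members tested between genotypes in cortex, the groups were apart for this 1 on the higher side, against 784 of 18255 genes tested. On the lower side they were apart for 2, *Gpat3* and *Agpat1*, against 917 of those genes. *Gpam* was at 43.5 ± 3.97 TPM (SD, n = 3) in WT cerebellum and 43.6 ± 4.64 TPM (SD, n = 3) in WT cortex. *Gpat3*, an isoform that fat cells use, was at 3.67 ± 0.776 and 3.93 ± 0.327 TPM (SD, n = 3 each). Of its exon bases, 37.4% also belong to other genes, and read pairs of those genes could be counted for it too.

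Among the acylglycerol-phosphate acyltransferases, *Agpat3* was the highest per length. It was at 151, 154 and 147 TPM in WT cerebella and 129, 128 and 126 TPM in WT cortices, with 166, 157 and 156 TPM in *Snx14*-KO cerebella and 129, 138 and 131 TPM in *Snx14*-KO cortices. Every cerebellum lay above every cortex in TPM. In TMM-scaled CPM the tissues overlapped, with WT cerebellum 3 at 332 CPM and *Snx14*-KO cortex 2 at 333 CPM, and the WT log2 fold change was 0.18. *Agpat4*, another isoform of the family, was at 51.4 ± 3.41 TPM in WT cerebellum and 57.2 ± 3.07 TPM in WT cortex (SD, n = 3 each). *Agpat2*, the isoform whose loss causes lipodystrophy, was the lowest of the 5, at 2.07 ± 1.19 TPM (SD, n = 3) in WT cerebellum. Its 3 WT cerebella were at 0.667, 1.22 and 2.08 CPM, in the order of their choroid plexus marker sums. The other groups did not keep that order. *Snx14*-KO cerebellum 3, with the lowest sum of its group, was at 1.57 CPM and *Snx14*-KO cerebellum 1 at 1.48 CPM. WT cortex 1, with the highest sum of the cortices, had the lowest level of the cortices, 0.531 CPM. Whether these cells played a part was not tested.

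*Lpin2* led the lipins per length, at 17.6, 19.4 and 19.6 TPM in WT cerebella, 19.5, 17.7 and 20.5 TPM in *Snx14*-KO cerebella, 21.4, 22.5 and 20.2 TPM in WT cortices and 18.6, 22.9 and 21.6 TPM in *Snx14*-KO cortices. *Lpin1*, the lipin best known from fat and muscle, came next at 13.3 ± 1.90 TPM (SD, n = 3) in WT cerebellum, and *Lpin3* was at 1.58 ± 0.393 TPM (SD, n = 3). Both enzymes of the last step were present. *Dgat1* was at 18.2 ± 1.85 TPM (SD, n = 3) in WT cerebellum and 15.5 ± 1.67 TPM (SD, n = 3) in WT cortex. *Dgat2* was at a like level per length in WT cerebellum, 18.5 ± 1.70 TPM (SD, n = 3), but at 64.2 ± 5.36 TPM (SD, n = 3) in WT cortex.

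*Plin3*, a perilipin found in most cells that moves between cytosol and droplets, was the main coat gene per length, at 29.9 ± 3.97 TPM (SD, n = 3) in WT cerebellum and 10.4 ± 0.674 TPM (SD, n = 3) in WT cortex. *Plin2*, the perilipin that marks droplets in many cells, was at 11.0 ± 0.989 and 4.64 ± 0.809 TPM (SD, n = 3 each). Among the droplet-fusing CIDE proteins, *Cidea* was the higher in WT cerebellum at 27.3 ± 3.54 TPM (SD, n = 3), and *Cideb* was listed at 8.64 ± 1.82 TPM (SD, n = 3) in WT cortex. Of the *Cideb* exon bases, 76.3% are also exon of *Nop9* on the opposite strand, so that level cannot be assigned to *Cideb* alone.

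Of the lipases, *Mgll*, which cleaves monoacylglycerols including the endocannabinoid 2-arachidonoylglycerol, led in cortex, and *Abhd6*, which acts on the same substrates, led in cerebellum. *Abhd6* was at 71.8, 70.5 and 64.8 TPM in WT cerebella, 60.9, 64.4 and 70.1 TPM in *Snx14*-KO cerebella, 76.6, 73.1 and 70.1 TPM in WT cortices and 70.2, 75.7 and 84.3 TPM in *Snx14*-KO cortices. In TPM its range ran across both tissues without a gap. In TMM-scaled CPM the cerebella, at 43.0 to 52.18 CPM, all lay under the cortices, at 52.35 to 63.2 CPM. *Pnpla2*, which encodes the adipose triglyceride lipase ATGL, was at 23.3 ± 3.27 TPM (SD, n = 3) in WT cerebellum, and *Lipe*, the hormone-sensitive lipase, at 6.56 ± 0.488 TPM (SD, n = 3).

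The genes that regulate lipolysis were all expressed. *G0s2*, an inhibitor of ATGL, was at 27.6, 27.6 and 31.5 TPM in WT cerebella, 31.2, 28.1 and 23.2 TPM in *Snx14*-KO cerebella, 10.3, 16.1 and 13.4 TPM in WT cortices and 10.7, 12.6 and 11.2 TPM in *Snx14*-KO cortices. Each cerebellum was above each cortex. *Abhd5*, the activator of ATGL, was at 14.6 ± 0.378 TPM (SD, n = 3) in WT cerebellum. *Bscl2*, which encodes seipin, led the assembly genes per length, at 39.4, 35.5 and 40.6 TPM in WT cerebella, 39.8, 36.5 and 40.0 TPM in *Snx14*-KO cerebella, 47.9, 39.6 and 43.2 TPM in WT cortices and 46.1, 47.6 and 44.5 TPM in *Snx14*-KO cortices. *Hsd17b11*, a dehydrogenase that sits on droplets, was at 30.2, 35.0 and 30.5 TPM in WT cerebella, 36.8, 33.2 and 37.8 TPM in *Snx14*-KO cerebella, 38.2, 40.5 and 39.6 TPM in WT cortices and 43.0, 33.3 and 38.3 TPM in *Snx14*-KO cortices. On this scale the WT tissues overlapped for *Bscl2* and the *Snx14*-KO tissues were apart. For *Hsd17b11* the WT tissues were apart and the *Snx14*-KO tissues overlapped. In TMM-scaled CPM the cerebella, at 65.0 to 71.4 CPM, all lay under the cortices, at 75.1 to 87.2 CPM, for *Bscl2*. Of the *Bscl2* exon bases, 10.8% also belong to other genes, and read pairs of those genes could be counted for it too. *Vps13c*, a lipid transfer protein of the same family as *Vps13a*, was at 15.1 ± 0.938 TPM in WT cerebellum and 14.5 ± 0.852 TPM in WT cortex (SD, n = 3 each).

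WT cerebellum and WT cortex were compared to see how the members are used in the 2 tissues before genotype is considered. A gene was called when its adjusted p was under 0.05 and its log2 fold change over 0.5 in size, with edgeR's quasi-likelihood test and Benjamini-Hochberg adjustment across all genes tested. Of 32 members tested, 17 were called, where 40.4% of the 18543 genes tested were called. Of these, 11 were higher in cerebellum, against 19.0% of all genes, and 6 were higher in cortex, against 21.4%. The median log2 fold change of the members was 0.08, with a range from -1.86 to 2.67, and that of all genes tested was 0.02. By DESeq2, 16 were called, where 38.9% of all genes were. Of the 32 members, the libraries of the WT groups were apart for 13 with the higher levels in cerebellum, against 31.3% of all genes, and for 11 with the higher levels in cortex, against 32.9%. Of the 17 called members, the 6 cerebella lay apart from the 6 cortices for 14, and of all genes called, for 84.98%.

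**Figure D2:**
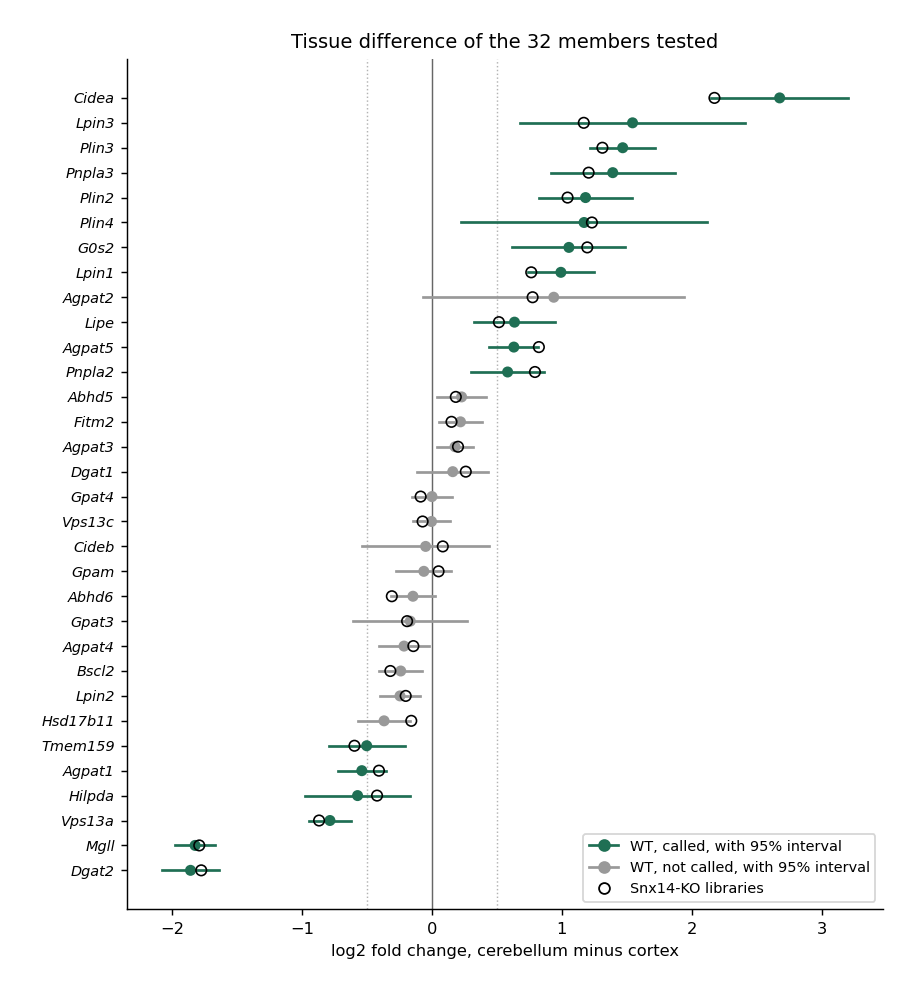
Log2 fold change between cerebellum and cortex for the 32 members tested, with filled points and bars for the WT estimate and its 95% interval (green where called, grey where not) and open circles for the same difference in *Snx14*-KO libraries. Dotted lines mark 0.5 in each direction, *Cidea* is at the top with 2.67 and *Dgat2* at the bottom with -1.86, and the open circles of all 17 called members lie on the side of their filled points.

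By role, the 3 perilipins tested, of 5, were called higher in cerebellum, with the *Plin4* call lost when any 1 of 3 WT libraries was left out, and so were 2 of 3 lipins, 1 of 2 CIDE genes, 3 of 5 lipases, 1 of 5 acylglycerol-phosphate acyltransferases and 1 of 3 regulators of lipolysis. Called higher in cortex were 1 of 2 DGAT enzymes, 1 of 5 lipases, 1 of 5 acylglycerol-phosphate acyltransferases, 1 of 3 regulators, 1 of 3 assembly genes and 1 of 3 other droplet genes. None of the 3 glycerol-3-phosphate acyltransferases tested was called, by edgeR or DESeq2, and 0 had an unadjusted p under 0.05, as 61.9% of all genes did.

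*Cidea*, which promotes the fusion of droplets and is best known from brown fat, showed the widest difference. It was at 8.84, 8.56 and 10.1 CPM in WT cerebella and 1.59, 0.914 and 1.82 CPM in WT cortices. The *Snx14*-KO cerebella were at 9.09, 7.44 and 7.74 CPM and the *Snx14*-KO cortices at 1.93, 2.14 and 1.30 CPM, so no cerebellum came near a cortex. The WT log2 fold change was 2.67 (SE 0.238, adjusted p = 4.08e-06), a 6.38-fold difference. *Ucp1*, the gene that defines brown fat, was at most 0.532 CPM in any library.

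*Dgat2*, which makes triglyceride from diacylglycerol, went the other way. It was at 19.3, 16.4 and 16.0 CPM in WT cerebella and 59.9, 69.4 and 59.2 CPM in WT cortices. In *Snx14*-KO mice it was at 22.7, 14.8 and 20.1 CPM in cerebella and 63.3, 71.1 and 63.4 CPM in cortices. Every cortex exceeded every cerebellum, and the WT level was 3.62 times as high in cortex (log2 fold change -1.86, SE 0.0996, adjusted p = 7.69e-08). Its partner *Dgat1* differed by 0.16 with a 95% interval from -0.11 to 0.43.

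*Mgll* was at 88.8, 80.8 and 84.9 CPM in WT cerebella and 282, 314 and 308 CPM in WT cortices. The *Snx14*-KO cerebella were at 86.9, 82.5 and 82.4 CPM, and the *Snx14*-KO cortices at 306, 245 and 322 CPM. Both cerebellar groups were narrow and lay far under the cortices. The log2 fold change in WT was -1.82 (SE 0.0699, adjusted p = 5.93e-09), or 3.53-fold higher in cortex, which had the smallest adjusted p of the members. *Abhd6*, the other monoacylglycerol lipase, differed by -0.15 with a 95% interval from -0.32 to 0.03.

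*Plin3* was at 37.5, 29.8 and 35.3 CPM in WT cerebella and 12.01, 11.8 and 13.5 CPM in WT cortices, with 26.5, 28.3 and 24.8 CPM in *Snx14*-KO cerebella and 9.71, 12.9 and 9.49 CPM in *Snx14*-KO cortices. The tissues did not overlap in either genotype. The WT difference was 1.47 (SE 0.112, adjusted p = 1.26e-06). *Plin2* was at 11.7, 11.0 and 12.2 CPM in WT cerebella and 5.37, 4.19 and 5.92 CPM in WT cortices, with 10.1, 11.4 and 16.5 CPM in *Snx14*-KO cerebella and 5.54, 6.71 and 6.17 CPM in *Snx14*-KO cortices. *Snx14*-KO cerebellum 3 was the highest, and the tissues again did not overlap. The WT log2 fold change was 1.18 (SE 0.160, adjusted p = 0.000105).

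*Plin4*, a perilipin with a long repeat that coats forming droplets, was lower and more variable. WT cerebella were at 1.67, 4.63 and 2.18 CPM and WT cortices at 0.850, 1.83 and 1.08 CPM, so WT cerebellum 1 lay below WT cortex 2. The log2 fold change of 1.17 (SE 0.425, adjusted p = 0.0366) passed the thresholds, but without WT cerebellum 2 it was 0.63 with an adjusted p of 0.198. Leaving out WT cortex 1 or 3 also ended the call, at adjusted p values of 0.130 and 0.116.

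*Lpin3* and *Pnpla3* completed the 8 largest differences. *Lpin3*, a lipin of gut and liver, was at 1.28, 2.03 and 1.97 CPM in WT cerebella and 0.319, 0.699 and 0.797 CPM in WT cortices, with 2.44, 1.38 and 2.43 CPM in *Snx14*-KO cerebella and 0.560, 1.43 and 0.771 CPM in *Snx14*-KO cortices. A *Snx14*-KO cortex reached the lowest *Snx14*-KO cerebellum, while the WT groups were apart with a log2 fold change of 1.54 (SE 0.388, adjusted p = 0.00607). *Pnpla3*, a lipase-like droplet protein linked to fatty liver, was at 9.67, 7.64 and 8.99 CPM in WT cerebella and 4.41, 2.53 and 3.13 CPM in WT cortices, with 8.18, 8.55 and 6.01 CPM in *Snx14*-KO cerebella and 3.11, 3.90 and 2.85 CPM in *Snx14*-KO cortices. All cerebella were above all cortices, and the WT log2 fold change was 1.39 (SE 0.215, adjusted p = 0.000271).

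**Figure D3:**
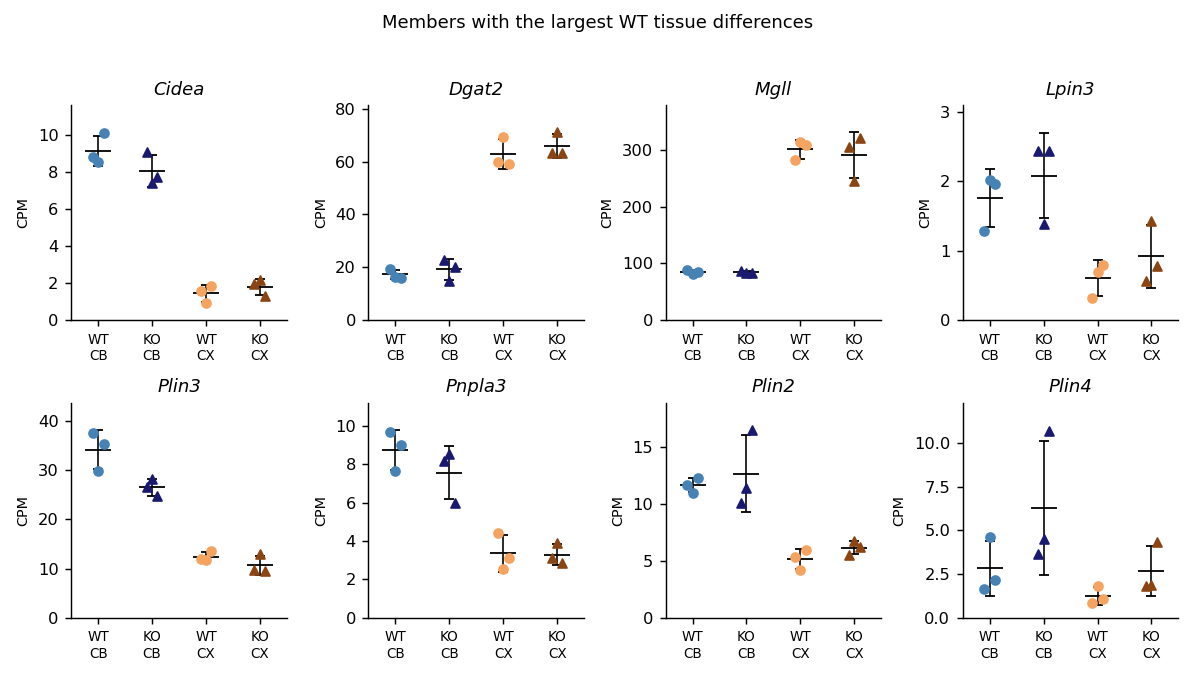
TMM-scaled CPM of each library for the 8 called members with the largest WT tissue differences, in WT and *Snx14*-KO (KO) cerebellum (CB) and cortex (CX), where points are libraries, and bars give the mean and SD of 3. *Dgat2* and *Mgll* are high in both cortical groups, and the other members are high in the cerebellar groups, with *Plin4* from 0.850 to 10.7 CPM.

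The other 9 called members had smaller differences. Those higher in cerebellum were *G0s2* with a log2 fold change of 1.05, *Lpin1* with 0.99, *Lipe* with 0.64, *Agpat5* with 0.63 and *Pnpla2* with 0.58, so the lipases ATGL and hormone-sensitive lipase and the ATGL inhibitor were higher in the same tissue. Those higher in cortex were *Vps13a*, a lipid transfer protein at contacts between organelles, with -0.78, *Hilpda*, another ATGL inhibitor, with -0.57, *Agpat1* with -0.54 and *Tmem159*, the seipin partner LDAF1, with -0.50. *Hilpda* did not pass by DESeq2 (adjusted p = 0.0574) or without WT cerebellum 2, WT cortex 2 or WT cortex 3. Without WT cerebellum 2, *Pnpla2* was at 0.45 and *Agpat1* at -0.49, under the threshold in size, and 13 members were called in place of 17. *Tmem159* was under 0.5 in size without WT cerebellum 3 or WT cortex 2 and with the replicate number as a block. About 11.5% of the exon bases of *Tmem159*, 15.6% of those of *Lipe* and 18.9% of those of *Agpat5* also belong to a gene on the opposite strand, and the counting ignored strand.

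The tissue difference was then taken in the *Snx14*-KO libraries, which are separate mice. There, 16 of 33 members were called, where 37.9% of all genes were. All 17 members called in WT had the same direction, and 15 of them were called again, while of the 7496 genes called in WT 96.97% had the same direction and 80.7% were called again in it. *Hilpda* (-0.42) and *Agpat1* (-0.41) were not. *Gpat2* was called only in *Snx14*-KO mice, at 0.717, 0.937 and 0.812 CPM in cerebella and 0.311, 0.220 and 0 CPM in cortices, from 15 to 17 and 0 to 5 read pairs. It was not tested in WT, where its cerebella were at 1.11, 0.116 and 0.426 CPM. Over the 17 members, the *Snx14*-KO difference minus the WT difference ran from -0.50 for *Cidea* to 0.21 for *Pnpla2*.

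*Snx14*-KO and WT cerebella were compared to ask whether the loss of SNX14, a protein of droplet contacts, went with a change in these genes. No member was called. Of all 18201 genes tested, 0.00549% were called, which is *Snx14* alone. By DESeq2, 0.901% of genes and again 0 of the 33 members tested passed. At an unadjusted p under 0.05 there were 4 members, where 8.15% of all genes had one. Of these, 3 were higher in *Snx14*-KO mice, against 5.78% of all genes, and 1 was lower, against 2.37%. The median log2 fold change over the 33 members was 0.02, with 20 above 0, against 49.9% of all genes, and a range from -0.36 to 1.17, and the median of all genes tested was -0.00062. For 22 of the 33, the 95% interval lay within 0.5 of 0, which held for 58.8% of all genes. The smallest adjusted p of a member was 0.365, for *Plin3*.

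**Figure D4:**
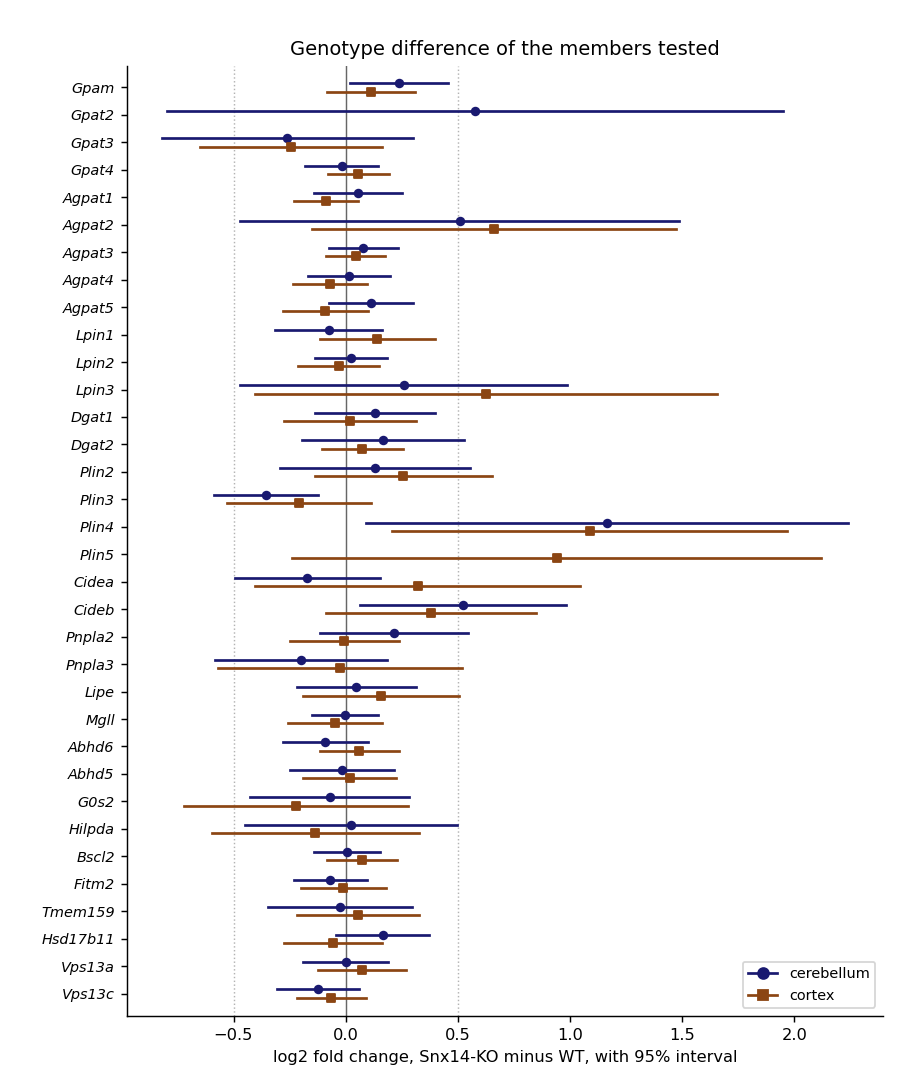
Log2 fold change of *Snx14*-KO against WT with its 95% interval for each member tested in cerebellum (dark blue circles) or cortex (brown squares), ordered by role, with dotted lines at 0.5 in each direction. Most intervals span 0, and *Plin4* is the furthest from 0 in both tissues, at 1.17 and 1.09, with wide intervals.

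*Plin3* had the smallest p in cerebellum. Its level was 34.2 ± 3.96 CPM (SD, n = 3) in WT and 26.5 ± 1.75 CPM (SD, n = 3) in *Snx14*-KO mice, and the 3 *Snx14*-KO libraries, at 24.8 to 28.3 CPM, were all under the WT libraries, at 29.8 to 37.5 CPM, which 6.01% of all genes also showed. The log2 fold change was -0.36 (95% interval -0.59 to -0.12, unadjusted p = 0.00719, adjusted p = 0.365 by edgeR's quasi-likelihood test). It stayed between -0.45 and -0.30 with each library left out in turn. In cortex the value was -0.21 with an interval from -0.53 to 0.11.

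*Plin4* had the largest estimate. The WT cerebella were at 1.67, 4.63 and 2.18 CPM and the *Snx14*-KO cerebella at 3.63, 4.52 and 10.7 CPM. *Snx14*-KO cerebellum 3 stood above the rest, and the groups overlapped. The log2 fold change was 1.17 (95% interval 0.09 to 2.24, unadjusted p = 0.0364, adjusted p = 0.555), and without that library it was 0.53, with an unadjusted p of 0.233. The microglia and macrophage and the astrocyte marker sums were highest and the Purkinje cell marker sum lowest in the same library, as given above, and a part of these cells in the *Plin4* value was not tested.

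*Cideb*, a CIDE protein known from liver, was at 4.22, 3.36 and 4.20 CPM in WT and 6.55, 4.47 and 5.79 CPM in *Snx14*-KO cerebella. The groups did not overlap, as for 6.36% of all genes in that direction, and the log2 fold change was 0.52 (95% interval 0.07 to 0.98, unadjusted p = 0.0295, adjusted p = 0.519). As for its level, its reads cannot be told from those of *Nop9*. *Gpam*, which starts triglyceride synthesis at mitochondria, was at 88.9, 98.1 and 76.2 CPM in WT and 98.6, 98.2 and 111 CPM in *Snx14*-KO cerebella. Again the groups were apart, though by very little, with a log2 fold change of 0.24 (95% interval 0.02 to 0.46, unadjusted p = 0.0362, adjusted p = 0.555), which was 0.15 without WT cerebellum 3. Without *Snx14*-KO cerebellum 3, no member had an unadjusted p under 0.05 on the higher side.

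**Figure D5:**
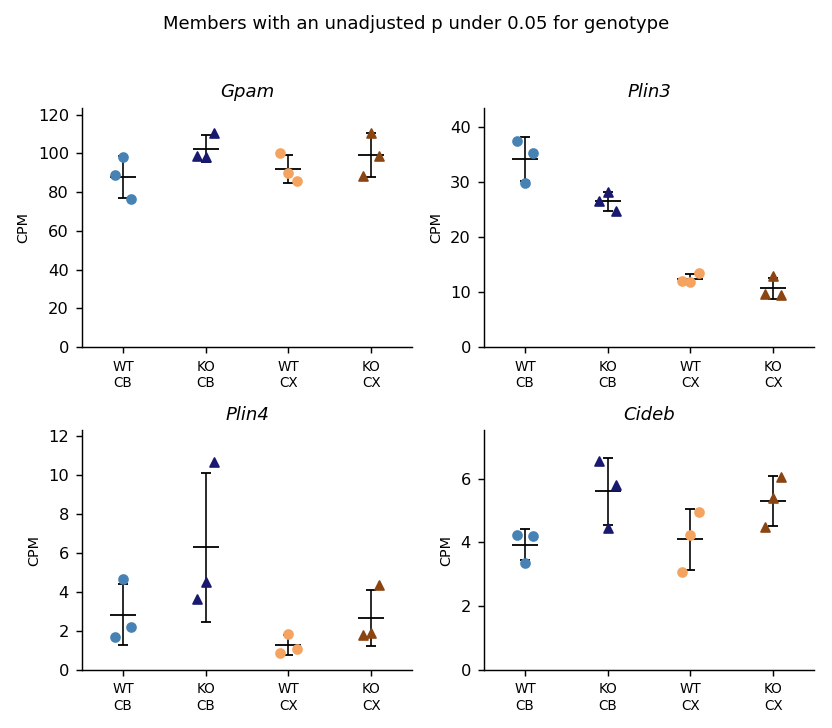
TMM-scaled CPM of each library for the 4 members with an unadjusted p under 0.05 in a genotype comparison, in WT and *Snx14*-KO (KO) cerebellum (CB) and cortex (CX), where points are libraries, and bars give the mean and SD of 3. In the *Plin4* panel, *Snx14*-KO mouse number 3 is the highest library of each tissue, at 10.7 CPM in cerebellum and 4.33 CPM in cortex.

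The other members tested in cerebellum had estimates on both sides of 0. Those with many reads had narrow intervals, such as *Bscl2* at 0.01 (95% interval -0.14 to 0.15), *Mgll* at -0.0035 (-0.15 to 0.14), *Gpat4* at -0.02 (-0.18 to 0.15), *Agpat3* at 0.08 (-0.07 to 0.23) and *Fitm2*, which helps droplets bud, at -0.07 (-0.23 to 0.09). Others had wide intervals. *Agpat2*, with 12 to 47 read pairs per library, was at 0.51 with an interval from -0.47 to 1.48, and *Lpin3*, with 23 to 51, at 0.26 with an interval from -0.47 to 0.99. *Dgat2* was at 0.17 (-0.19 to 0.53) and *Pnpla2* at 0.22 (-0.11 to 0.55). For *Vps13c* the *Snx14*-KO cerebella, at 60.7 to 72.2 CPM, lay under the WT cerebella, at 72.9 to 76.4 CPM. Of the 33 members tested, 2 had groups apart on the lower side, against 6.01% of all genes. Another 2 had groups apart on the higher side, against 6.36%.

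In cortex, the second tissue of the study, the comparison of *Snx14*-KO with WT also called no member, by edgeR or by DESeq2. Of the 18255 genes tested, 0.00548% were called by edgeR, again *Snx14* alone, and 0.0493% by DESeq2. *Plin4* was the single member of 33 with an unadjusted p under 0.05, where 4.50% of all genes had one. WT cortices were at 0.850, 1.83 and 1.08 CPM and *Snx14*-KO cortices at 1.81, 1.87 and 4.33 CPM. The highest was again *Snx14*-KO number 3, and the lowest *Snx14*-KO cortex lay just under the highest WT cortex. The log2 fold change was 1.09 (95% interval 0.21 to 1.97, unadjusted p = 0.0197, adjusted p = 0.996), and 0.55 without that library. Here the microglia and macrophage marker sum of that library, 553.7 CPM, lay within the range of the WT cortices, 508 to 584 CPM. Its astrocyte and Bergmann glia marker sum, 7006 CPM, was the highest of the cortices, with the WT cortices at 6102 to 6960 CPM. A part of these cells in the *Plin4* value was not tested.

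The median over the 33 members in cortex was 0.05 and the range from -0.25 to 1.09, with a median of 8.2e-05 over all genes tested. The 95% interval was within 0.5 of 0 for 20 members, against 63.4% of all genes. *Plin5*, with 2 to 14 read pairs per library, had an estimate of 0.94 with an interval from -0.24 to 2.12. *Mgll* was at -0.05 (-0.26 to 0.16), *Dgat2* at 0.07 (-0.11 to 0.25), *Bscl2* at 0.07 (-0.08 to 0.23) and *Gpam* at 0.11 (-0.08 to 0.31). The 10 meningeal fibroblast markers summed to 359 CPM in *Snx14*-KO cortex 2 and at most 139 CPM in the other 5 cortices. *Gfap* was at 1049.8 CPM in that library against 147 to 261 CPM, and the 10 oligodendrocyte markers summed to 5638 CPM against 7267 to 8207 CPM. Between genotypes in cortex, 0 of these 10 oligodendrocyte markers were called by edgeR or DESeq2 and 8 had an unadjusted p under 0.05, with estimates lower in *Snx14*-KO mice. The part of these cells in the members' values was not tested. *Plin4* without *Snx14*-KO cortex 2 was at 1.30.

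Whether the effect of genotype differed between tissues was tested as an interaction in all 12 libraries. None of the 34 members tested was called by edgeR, 0 were called by DESeq2 and 0 had an unadjusted p under 0.05, where 0% of 19380 genes were called by edgeR, 0.186% by DESeq2 and 5.68% had an unadjusted p under 0.05. The cerebellar effect minus the cortical effect ran from -0.94 for *Plin5* to 0.86 for *Gpat2*, with a median of -0.04, and -0.0043 over all genes. For *Plin4* it was 0.06 with an interval from -1.53 to 1.65, and for *Plin3* -0.16 with an interval from -0.54 to 0.23. The *Plin3* value was -0.05 without *Snx14*-KO number 2 and -0.07 without WT number 1. The interval lay within 0.5 of 0 for 17 of the 34, against 42.2% of all genes, so for the other 17 members the interval reached past a difference of that size.

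A list of 40 other genes of the pathway, of which 37 were tested, was compared in the same way. In cerebellum 0 were called by edgeR and 0 by DESeq2, and the median log2 fold change was 0.04. At an unadjusted p under 0.05 were 3 of the 37, a share close to the 8.15% of all genes. They were *Lpl*, which encodes lipoprotein lipase, at 2.38, *Rnf213*, a ubiquitin ligase that gathers on droplets, at 0.69, and *Soat1*, which makes sterol esters, at 0.35. *Lpl* was at 1.44, 4.11 and 0.958 CPM in WT and 3.11, 2.98 and 27.1 CPM in *Snx14*-KO cerebella. *Rnf213* was at 11.7, 12.7 and 8.25 CPM in WT and 14.4, 12.6 and 25.0 CPM in *Snx14*-KO cerebella, and *Soat1* at 23.6, 25.6 and 28.1 CPM against 30.7, 27.5 and 39.8 CPM. Each of them was highest in *Snx14*-KO cerebellum 3, the library with the highest microglia and macrophage and astrocyte marker sums and the lowest Purkinje cell marker sum, and the part of these cells was not tested. In cortex 0 were called by either tool and 0 had an unadjusted p under 0.05, with a median of -0.01. In the interaction, *Lpl* alone had an unadjusted p under 0.05 (log2 fold change 2.48, unadjusted p = 0.0217, adjusted p = 0.729 by edgeR's quasi-likelihood test).

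Between WT tissues, 15 of these 37 genes were called, 7 higher in cerebellum and 8 higher in cortex, a share close to the 40.4% of all genes called, with 19.0% higher and 21.4% lower. Of the acyl-CoA synthetases, which activate fatty acids, *Acsl5* (-2.75) and *Acsl4* (-1.20) were higher in cortex and the other 3 were not called. *Acsl5* was at 13.3, 11.2 and 10.8 CPM in WT cerebella and 73.4, 77.3 and 87.5 CPM in WT cortices, groups far apart. *Gpd1*, which makes glycerol-3-phosphate in the cytosol, was higher in cerebellum (1.40), and *Gpd1l* (-0.98) and the mitochondrial *Gpd2* (-0.90) were higher in cortex. *Lpl* was higher in cortex (-2.80), at 16.0, 15.2 and 14.1 CPM. Of the transcription factors, *Tfeb* (1.27), *Srebf1* (0.58) and *Ppard* (0.53) were higher in cerebellum, and *Mlxipl*, which encodes ChREBP, in cortex (-1.32).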

How the data were processed

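RNA-Seq counts of 12 libraries were used. The authors aligned the reads to GRCm38 and deposited raw counts of read pairs per gene from featureCounts (Subread 2.0.1), made without regard to strand, with a pair counted for every gene it overlapped. Genes were matched by identifier to GENCODE vM21, and 97 spike-in and 26248 numbered features (0.0506% to 0.0632% of counts) were left out.

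Counts were compared in R 4.3.3 with edgeR 4.0.16 (filterByExpr, TMM, quasi-likelihood test, Benjamini-Hochberg adjustment over all genes tested), and DESeq2 1.42.0 was the main alternative. CPM was computed from the TMM-scaled counts, and TPM from the deposited counts and exon lengths. The self-test was run on simulated data. No 2 libraries of a group were identical.

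All 39 members are described by role. Values of every library are given for members called or with an unadjusted p under 0.05 for genotype, for the highest per length in each role, and for the 8 called members with the largest WT tissue difference. Members and lists were chosen with earlier results of these data known. The labels call replicates separate mice. The titles use mouse numbers 1 to 3 in both tissues without saying that these are the same animals.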

Additional observations from a re-analysis of the deposited data

How the results depend on the processing

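No member was called for genotype in either tissue or in the interaction, and none was called under any alternative run: DESeq2, median-of-ratios size factors, no filter on low counts, the replicate block, a fit over all 4 groups (not for the interaction) and leaving out each library in turn. The count of all genes called did move. In cerebellum it was 1, against 164 by DESeq2, 347 with no filter, 45 in the fit over 4 groups and 1 to 254 with a library left out, with 254 without *Snx14*-KO cerebellum 2, 10 without WT cerebellum 2 and 2 without WT cerebellum 3. In cortex it was 1, against 9, 149 and 2 under the same alternatives and 1 to 2 with a library left out, the 2 without *Snx14*-KO cortex 1. In the interaction it was 0, against 36 by DESeq2, 418 with no filter and 0 to 249 with a mouse number of one genotype left out of both tissues, with 249 without *Snx14*-KO number 2 and 1 without WT number 1. Without the filter, 1 pathway gene was called in cerebellum and 1 in the interaction, which was *Lpl* in both. The interaction estimate for *Plin4*, 0.06, ran from -0.024 (without *Snx14*-KO number 3) to 0.22 with mice left out and was -0.0016 without WT number 3, and that for *Cideb*, 0.13, ran from -0.11 (without *Snx14*-KO number 1) to 0.34 and was -0.0017 without WT number 2. The members' interaction median, -0.04, ran from -0.067 to 0.020 with mice left out, with 0.020 without *Snx14*-KO number 2. Their median WT tissue difference, 0.08, was 0.21 with no filter, 0.15 in *Snx14*-KO libraries (an alternative chosen after seeing the data) and 0.0098 to 0.12 with a library left out, while 13 to 18 members were called. The cause of these changes was not tested. Same-numbered libraries of the 2 genotypes had correlated deviations of 0.0751, 0.0277 and -0.00741 in cerebellum and 0.112, -0.0424 and 0.0576 in cortex. Between tissues, same-numbered libraries had 0.103, 0.114 and 0.0767 in WT and 0.295, 0.0248 and 0.0824 in *Snx14*-KO mice. All 6 were positive, and each WT library matched its own number best, but *Snx14*-KO cerebella 2 and 3 did not. Since not every value was over 0.1 and the labels do not state shared animals, the numbers were not taken as pairs. With the replicate block, 1 gene was called in cerebellum, 1 in cortex and 0 in the interaction, and 16 members between WT tissues, with *Tmem159* at -0.50 lost by its size alone. With 3 mice a group, *Plin5*, *Agpat2* and *Lpin3*, with few reads, and *Plin4*, which varied between mice, had wide intervals.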

Other observations

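*Plin4* varied between mice in a way that was alike in the 2 tissues when libraries were matched by genotype and mouse number. In cerebellum and cortex it was at 1.67 and 0.850 CPM in WT number 1, 4.63 and 1.83 CPM in WT number 2, 2.18 and 1.08 CPM in WT number 3, 3.63 and 1.81 CPM in *Snx14*-KO number 1, 4.52 and 1.87 CPM in *Snx14*-KO number 2, and 10.7 and 4.33 CPM in *Snx14*-KO number 3. Over these 6 numbers the log2 levels had a Pearson r of 0.990 (exact permutation p = 0.00278, Benjamini-Hochberg adjusted 0.0944 over 34 members) and a Spearman rho of 0.943 (exact permutation p = 0.0167, adjusted 0.283). Without the 2 numbers farthest from the median in cerebellum, r was 0.958. The permutation treats mice of both genotypes as exchangeable, while the *Plin4* estimate for *Snx14*-KO was above 0 in both tissues (1.17 and 1.09 on the log2 scale), so genotype and mouse cannot be told apart in this r. The relation did not pass after adjustment, and it rests on the reading that a number names the same animal in both tissues, which the labels do not state. Among the other members, r ran from -0.798 for *Lpin1* to 0.743 for *Agpat2*, and *Lpin1* had a rank relation as strong in the opposite direction, with a rho of -0.943 and the same p and adjusted p for rho as *Plin4*, while *Pnpla3* had a rho of 0.886. *Plin5*, the immediate neighbour of *Plin4*, had an r of 0.431.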
